A study of Mus musculus with 6 samples.

Results

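Trans-synaptic adhesion molecules are cell-surface and secreted proteins that join the presynaptic and postsynaptic membranes across the synaptic cleft. The 40 genes described here were listed by symbol from their known roles, and all 40 were among the 55471 gene identifiers of the count table. They were grouped as 9 presynaptic receptors, 19 postsynaptic ligands, 3 secreted bridging proteins, 6 latrophilins and FLRT proteins, and 3 SynCAMs. The 4 listed contactin-associated proteins were counted with the presynaptic receptors, although Cntnap1 and Cntnap2 are described below by their roles at or beside axonal nodes. All 40 passed the filter on low counts that left 16562 genes in the test.

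RNA was sequenced from primary cortical neurons of CD1 mouse embryos, taken at E14.5-15 and kept in vitro until day 11. Both groups received Ara-C, a drug that kills dividing cells, at 2 uM, and both were transduced with lentivirus on day 6. One group carried a control short hairpin RNA (shControl, genotype given as WT), and the other a hairpin against Opa1 (shOpa1, genotype given as an Opa1 knock-down). Opa1 encodes the GTPase that fuses mitochondrial inner membranes and shapes their cristae. Each group held 3 libraries, labelled as biological replicates without saying whether they came from separate dissections, so p-values measure only the spread between these libraries. The comparison asks how loss of Opa1 changes the transcripts of cultured neurons. The hairpin sequences and the promoter of the vector are not given in the sources used here, and 1 hairpin label per group cannot tell loss of Opa1 apart from another effect of that hairpin.

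Library totals ran from 24676709 to 32961580 counts. Opa1 held 202, 205 and 202 CPM (counts scaled to a common library total) in shControl and 10.2, 8.64 and 8.50 CPM in shOpa1, a log2 fold change of -4.48 ± 0.09 (SE; adjusted p = 2.09e-06). On the second principal component the replicate 3 libraries of both groups scored -29.4 and -30.4, and the remaining 4 scored 13.8 to 16.4. Across all tested genes 20.0% were called lower in shOpa1 and 18.9% higher, at an adjusted p under 0.05 in edgeR's quasi-likelihood test, which is the meaning of "called", "fell" and "rose" throughout.

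Synapse organisers work as pairs. Presynaptic neurexins bind neuroligins, LRRTMs and cerebellins, and presynaptic receptor tyrosine phosphatases of the LAR type bind SLITRKs, SALMs and IL1RAPL proteins. Latrophilins, which are adhesion G protein-coupled receptors, bind FLRT proteins and teneurins, and SynCAMs bind one another through immunoglobulin domains. In cortical neurons these pairs recruit vesicle release sites on one side and glutamate or GABA receptors on the other.

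Of the 40 adhesion genes, 20 (50%) fell in shOpa1, against 20.0% of all tested genes, and 1 (2.5%) rose, against 18.9%. The other 19 were not called. The median log2 fold change of the 40 was -0.36, and that of all tested genes was -0.01. The single values ran from -1.44 for Cadm3, a SynCAM, to 0.74 for Cntnap1, a contactin-associated protein. A log2 fold change below 0 was found for 32 of the 40 genes, where 50.7% of all tested genes lay below 0. Among genes with a mean of at least 10 CPM, 25.3% of 9666 fell, and 39 of the 40 adhesion genes were in that range.

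Single libraries were then compared without a test. In 22 genes all 3 shOpa1 libraries lay below all 3 shControl libraries, as did 26.0% of all tested genes. In 1 gene they all lay above, as did 25.8% of all genes, and in 17 the groups overlapped. Taken by replicate number, 28 genes were lower in all 3 pairs (38.2% of all genes) and 5 were higher in all 3 (36.6% of all genes). The median difference of the 40 genes was -0.33 in pair 1, -0.36 in pair 2 and -0.36 in pair 3, on the log2(CPM + 0.5) scale. Summed over the 40 genes, the level was 7851 ± 612 CPM with the control hairpin (SD, n = 3) and 5882 ± 525 CPM with the Opa1 hairpin (SD, n = 3), 25.1% lower.

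The main test did not use the pairing of libraries by replicate number. The paired fit, with a replicate block, called 27 of the 40 genes lower, against 30.7% of all genes, and 4 higher, against 28.8%. The 21 genes called without the block were all called with it. Without both libraries numbered 3, 25 genes fell, against 26.1% of all genes in that fit, and 4 rose, against 24.8%. The authors' deposited table lists 25 of the 40 genes as lower and 4 as higher at an adjusted p under 0.05, where it lists 20.7% and 20.2% of all genes with an adjusted p. All 21 genes called here were called with the same sign in the authors' deposited table. DESeq2 called 21 of the 40 genes lower, against 18.0% of all genes it tested, and 2 higher, against 17.5%.

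**Figure D1:**
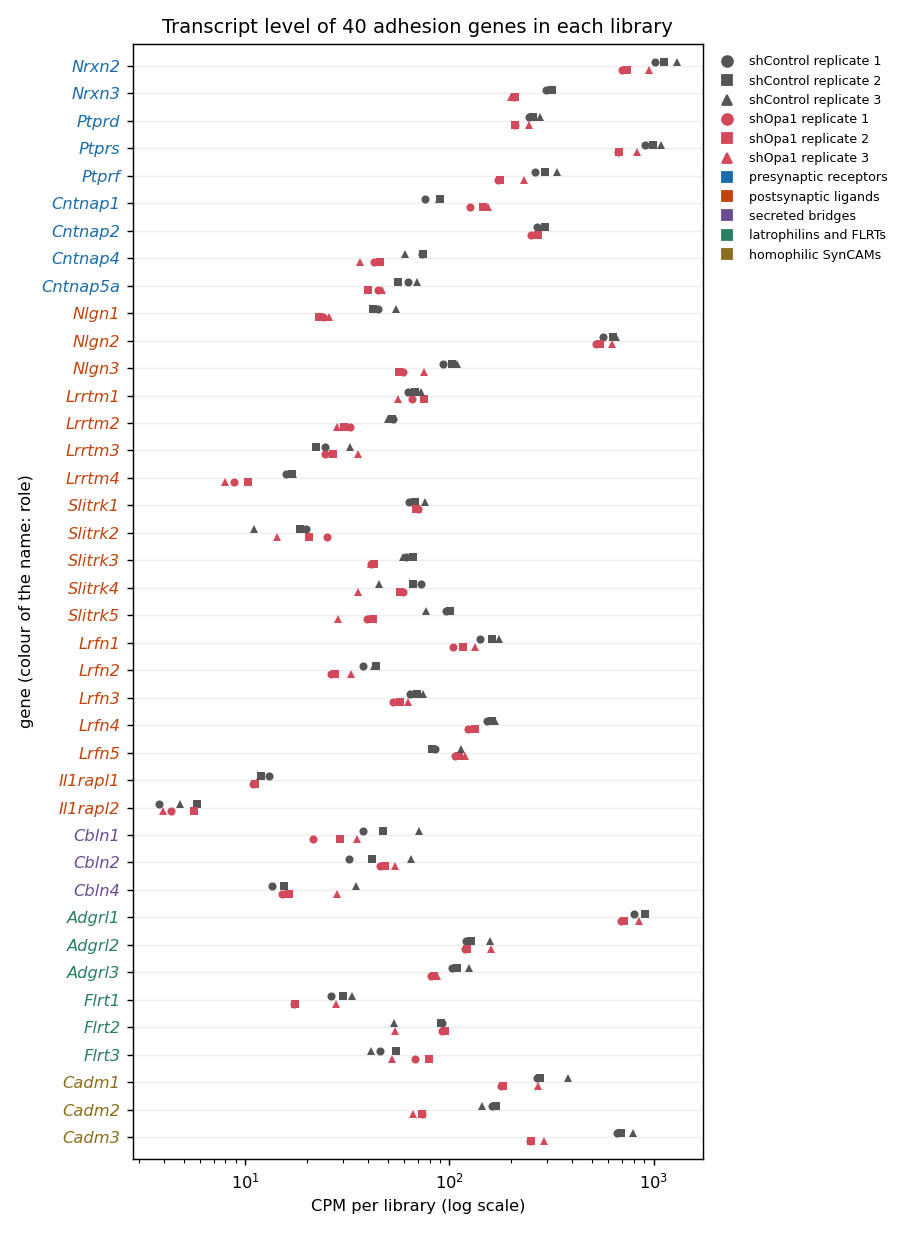
Level of each of the 40 adhesion genes in each library, in CPM on a log axis, with shControl in grey and shOpa1 in red, 1 mark per library shaped by replicate number, and gene names coloured by role. In 22 genes the red marks all lie left of the grey ones, in Cntnap1 they all lie right of them, and in 17 genes they overlap.

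Neuronal marker lists had higher summed levels than the lists of other cell types. Their sums were lower in shOpa1, by 32.3% (pan-neuronal), 34.3% (excitatory) and 26.1% (inhibitory). Astrocyte and microglial sums were also lower, by 54.9% and 32.1%, and did not overlap between groups. The sums of the remaining lists overlapped. Such sums do not give the share of neuronal RNA in the culture. The calls below stand beside 20.0% of all tested genes that fell and 18.9% that rose. The summed level of 8 pan-neuronal markers was 8027 to 8559 CPM in shControl and 5462 to 5842 CPM in shOpa1, with 5 of the 8 called lower and 1 higher. Excitatory neuron markers summed to 1046 to 1211 CPM against 668 to 822 CPM (4 of 8 fell), and inhibitory neuron markers to 3490 to 4087 CPM against 2467 to 3067 CPM (5 of 10 fell, 1 rose). Astrocyte markers summed to 249 to 423 CPM against 122 to 186 CPM, mostly from Slc1a2 (3 of 8 fell, 1 rose), with Gfap at 1.77 CPM or less in every library. Microglial Cx3cr1, P2ry12, Tmem119, C1qa, C1qb and Itgam, endothelial Cldn5, and the oligodendrocyte genes Sox10 and Mag were each under 1 CPM in every library. Oligodendrocyte lineage markers summed to 32.4 to 60.6 against 31.3 to 47.3 CPM, microglial markers to 17.7 to 20.0 (shControl) against 12.2 to 13.1 CPM, endothelial and mural markers to 7.44 to 10.3 against 5.17 to 8.68 CPM, and markers of dividing cells to 1.93 to 10.9 against 2.40 to 2.72 CPM. The part of these shifts in the values of the adhesion genes was not tested. In bulk RNA, fewer cells of a type and less RNA per cell cannot be told apart.

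One short sequence was searched for in the 3′ untranslated regions (UTRs) of these genes, since it ranked first of 16220 sequences of 7 bases searched over 13810 other genes. The rank was by how far, in standard errors, the fold changes of its carriers in this same comparison lay below those of other genes, after allowing for UTR length and base composition. That sequence is GAAACTA, read on the mRNA strand only. Because the fold changes of this comparison chose the sequence, the values of its carriers are a description. It occurred in the longest annotated 3′ UTR of 7 of the 40 adhesion genes (17.5%) and of 1327 of the 13810 other genes (9.61%). Adhesion genes have long 3′ UTRs, with a median of 2071 bases against 1235, and among UTRs of at least 1000 bases the shares were 7 of 32 (21.9%) and 1176 of 7921 (14.8%). Among UTRs of at least 5000 bases they were 3 of 7 (42.9%) and 39.4%.

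The copies in the 7 carriers are shown because these genes include Slitrk5, Cadm2 and Nlgn1, which are among the 4 adhesion genes with the lowest fold changes. Each is written 5′ to 3′ on the mRNA strand as DNA, with GAAACTA in capitals and 11 bases on either side in lower case, and its place is that of the capitals in GRCm38 (GENCODE M21). All 9 copies lie in the last exon of the transcript, in the 3′ UTR.
Cadm2, chr16:66660933-66660939, minus strand: ctagacacattGAAACTAgaataggtcta
Cadm2, chr16:66659052-66659058, minus strand: agtacacactaGAAACTAtgcaaactgta
Nlgn1, chr3:25432875-25432881, minus strand: atcaattggcaGAAACTAaagaagatatt
Nlgn1, chr3:25432778-25432784, minus strand: aagtcttgggaGAAACTAgaggtatagtg
Slitrk5, chr14:111682724-111682730, plus strand: aaaaaacacaaGAAACTAaaaaatgaagc
Cntnap5a, chr1:116584827-116584833, plus strand: tcattgttcctGAAACTAttgcttgggta
Ptprd, chr4:75942589-75942595, minus strand: aatactaaaaaGAAACTAgaaggctacct
Lrrtm3, chr10:63928934-63928940, minus strand: atctggaagttGAAACTAtatttggggaa
Slitrk2, chrX:66657502-66657508, plus strand: actttttaattGAAACTAatattttttct

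Both carriers with 2 copies, Cadm2 and Nlgn1, were lower in shOpa1, with log2 fold changes of -1.16 and -0.97. Their 3′ UTRs were the longest of the adhesion genes, at 7672 and 7423 bases, which gave 0.261 and 0.269 copies per kilobase. Of the 5 carriers with 1 copy, Slitrk5 (-1.31) and Cntnap5a (-0.52) fell, and Ptprd (-0.23), Lrrtm3 (0.13) and Slitrk2 (0.27) were not called. These 5 genes had 0.756, 0.15, 0.269, 0.631 and 0.202 copies per kilobase, in the same order. An effect of copy number apart from UTR length was not tested. The median of the 7 carriers was -0.52. The 33 adhesion genes without the sequence in the 3′ UTR had a median of -0.30, with 16 (48.5%) called lower and 1 (3.03%) higher. Among other genes the medians were -0.42 with the sequence and 0.02 without it. Of the other genes without it 18.6% fell and 22.1% rose, and of those with it 50.3% fell and 8.06% rose. The adhesion gene with the lowest fold change, Cadm3, carried no copy in its 3763 bases of 3′ UTR. In 6 of the 33 genes without the sequence in the 3′ UTR (Adgrl2, Cntnap1, Flrt3, Il1rapl1, Il1rapl2 and Nrxn3) the letters occurred upstream of it in at least 1 coding transcript. Among the 7 carriers they also occurred upstream in Cadm2 (4 of 5 coding transcripts) and Nlgn1 (4 of 4) only. A match of these letters is no evidence of a bound site, and its part in the falls was not tested.

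**Figure D2:**
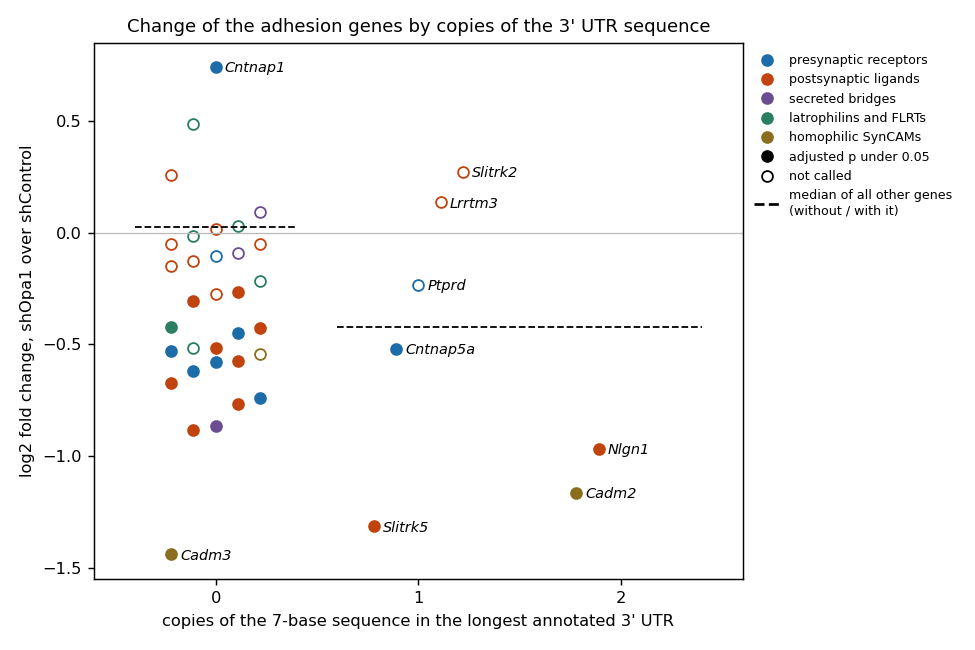
Log2 fold change of each adhesion gene (shOpa1 over shControl) by its number of copies of GAAACTA in the longest annotated 3′ UTR, coloured by role, filled where called, with points moved sideways only to keep them apart. Dashed lines mark the medians of all other genes without (0.02) and with (-0.42) the sequence. Cadm3 lies lowest of all with 0 copies.

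The presynaptic neurexins both fell. Neurexins are single-pass receptors of the axon terminal that organise release sites through partners such as neuroligins and LRRTMs. Nrxn3 (ENSMUSG00000066392, chr12:88722876-90334935) held 298, 316 and 305 CPM in shControl and 206, 208 and 201 CPM in shOpa1, so the groups lay far apart relative to their spread. Its log2 fold change was -0.58 ± 0.05 (SE; adjusted p = 0.000301). Nrxn2 (ENSMUSG00000033768, chr19:6418731-6544169) held 1012, 1122 and 1299 CPM against 699, 737 and 945 CPM, with the highest library of each group numbered 3. It fell by 0.53 ± 0.14 on the log2 scale (adjusted p = 0.0211). Leaving out shControl replicate 2 (adjusted p = 0.0585) or 3 (0.0524), or shOpa1 replicate 1 (0.0706) or 2 (0.0791), ended the call of Nrxn2.

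Of the 3 LAR-type receptor phosphatases, the presynaptic partners of SLITRKs and SALMs, Ptprf and Ptprs fell. Ptprf, which encodes LAR itself, went from 263, 294 and 336 CPM to 173, 178 and 231 CPM (log2 fold change -0.62 ± 0.14, adjusted p = 0.0106). Ptprs, which encodes PTPσ, a receptor that also binds proteoglycans, went from 907, 990 and 1085 CPM to 673, 679 and 834 CPM (-0.45 ± 0.11, adjusted p = 0.0138). Both groups kept apart in every library of both genes. The call of Ptprs was lost without shOpa1 replicate 1 (adjusted p = 0.0551) or 2 (0.0584). Ptprd, which encodes PTPδ, held 246, 257 and 277 CPM against 210.1, 209 and 244 CPM. The groups of Ptprd did not overlap, but it was not called (-0.23 ± 0.08, adjusted p = 0.0576). The replicate block gave it an adjusted p of 0.000729, and leaving out shOpa1 replicate 3 gave 0.0130.

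Contactin-associated proteins (Casprs) moved in both directions. Cntnap1, whose product builds the paranodal junction between axon and myelinating glia, was the 1 adhesion gene that rose. Cntnap1 (ENSMUSG00000017167, chr11:101170523-101190724) held 76.1, 90.2 and 89.0 CPM in shControl and 127, 146 and 154 CPM in shOpa1. Every shOpa1 library was above every shControl library, and the log2 fold change was 0.74 ± 0.10 (adjusted p = 0.00129). Cntnap4, known from interneuron synapses, fell from 73.4, 74.6 and 60.9 CPM to 42.9, 45.9 and 36.5 CPM (-0.74 ± 0.11, adjusted p = 0.00236). Cntnap5a, a less studied Caspr, fell from 62.8, 56.0 and 69.6 CPM to 44.7, 40.1 and 46.7 CPM (-0.52 ± 0.10, adjusted p = 0.00585). Cntnap4 and Cntnap1 thus had changes of like size and opposite sign. Cntnap2, which gathers potassium channels beside the nodes of axons, differed little, with 268, 295 and 284 CPM against 252, 272 and 264 CPM (-0.11 ± 0.06, adjusted p = 0.217). With the replicate block it was called (adjusted p = 0.0441). A further Caspr gene, Cntnap5b, is outside the 40 genes and was chosen for mention after its values were seen. Cntnap5b fell by 1.03 ± 0.17 (adjusted p = 0.00326). The median of the listed Casprs was -0.31, and with Cntnap5b included it was -0.52.

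**Figure D3:**
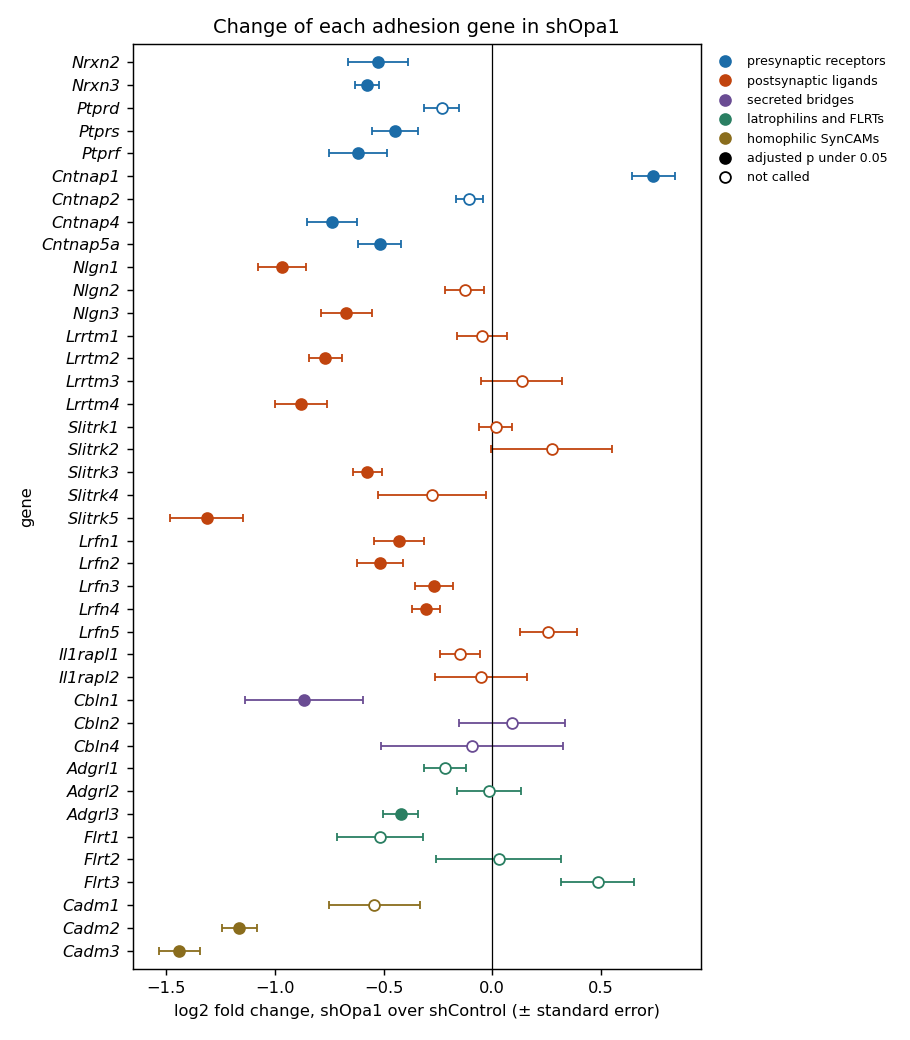
Log2 fold change of each adhesion gene in shOpa1 over shControl with its standard error, coloured by role and filled where the adjusted p was under 0.05. The filled points lie left of 0 for 20 genes and right of it for Cntnap1 alone.

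Neuroligins, the postsynaptic ligands of neurexins, split by member. Nlgn1, found mainly at excitatory synapses, was 1.96-fold lower. It held 44.9, 42.3 and 54.9 CPM in shControl and 24.0, 23.0 and 25.6 CPM in shOpa1 (log2 fold change -0.97 ± 0.11, adjusted p = 0.000653). Nlgn3, found at excitatory and inhibitory synapses, fell from 92.5, 104 and 109 CPM to 59.4, 56.9 and 75.0 CPM (-0.67 ± 0.12, adjusted p = 0.00400). Another gene model, Gm21986, overlaps 41.2% of the exon bases of Nlgn3, so the assignment of reads from the shared bases is uncertain. Nlgn2, the neuroligin of inhibitory synapses, had 563, 632 and 658 CPM against 523, 548 and 626 CPM, and the groups overlapped. Its log2 fold change was -0.13 ± 0.09 (adjusted p = 0.310), and it was called lower only in the fit with the replicate block (adjusted p = 0.0243).

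The 4 LRRTMs are leucine-rich repeat proteins of excitatory synapses. Lrrtm2, a neurexin ligand, fell from 53.2, 52.6 and 49.8 CPM to 32.6, 30.6 and 28.2 CPM (log2 fold change -0.77 ± 0.08, adjusted p = 0.000375). Lrrtm4, which binds heparan sulphate proteoglycans, fell from 15.8, 17.0 and 17.2 CPM to 8.80, 10.3 and 7.98 CPM (-0.88 ± 0.12, adjusted p = 0.00138). In both genes the groups were well separated. Gm4409 overlaps 25.1% of the exon bases of Lrrtm4. Lrrtm1, also a neurexin ligand, held 62.6, 68.0 and 72.7 CPM against 65.6, 75.1 and 55.9 CPM, with pairs that differed in sign (-0.05 ± 0.12, adjusted p = 0.768). Lrrtm3 held 24.6, 22.3 and 32.4 CPM against 24.5, 26.9 and 35.6 CPM (0.13 ± 0.19, adjusted p = 0.604).

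SLITRKs, the ligands of LAR-type phosphatases, held both the second lowest fold change of the 40 genes and some of the noisiest values. Slitrk5 (ENSMUSG00000033214, chr14:111675097-111683141) held 96.5, 100.4 and 76.8 CPM in shControl and 39.6, 42.1 and 28.3 CPM in shOpa1. The highest shOpa1 library was far below the lowest shControl library, and the gene was 2.49-fold lower (log2 fold change -1.31 ± 0.17, adjusted p = 0.00126). Slitrk3, which organises inhibitory synapses, fell from 61.4, 66.3 and 59.1 CPM to 41.2, 42.7 and 41.4 CPM (-0.58 ± 0.07, adjusted p = 0.000772). Slitrk1 stayed within 63.3 to 75.8 CPM in all 6 libraries and was not called (0.01 ± 0.08, adjusted p = 0.898).

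In Slitrk2 and Slitrk4 the libraries numbered 3 were lower than the other libraries of their group by at least 0.5 on the log2 scale, in both groups. Slitrk2 held 19.9, 18.6 and 11.1 CPM in shControl and 25.0, 20.5 and 14.3 CPM in shOpa1, and was not called (0.27 ± 0.28, adjusted p = 0.479). Each pair was higher in shOpa1, and the fit with the replicate block called it (adjusted p = 0.00795). Slitrk4 held 72.4, 66.6 and 45.1 CPM against 59.2, 57.1 and 35.6 CPM (-0.28 ± 0.25, adjusted p = 0.422). It was lower in each pair and was called with the block (adjusted p = 0.000722). Both genes thus moved in opposite directions within pairs, while their groups overlapped.

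Of the 5 SALMs, postsynaptic leucine-rich repeat proteins encoded by Lrfn genes, 4 fell by modest amounts. Lrfn2, whose product binds NMDA receptors, fell from 37.6, 43.5 and 42.7 CPM to 26.4, 27.4 and 32.8 CPM (log2 fold change -0.52 ± 0.11, adjusted p = 0.00766). Lrfn4 fell from 152, 161 and 167 CPM to 123, 133 and 133 CPM (-0.30 ± 0.06, adjusted p = 0.00818). Lrfn1 fell from 141, 161 and 175 CPM to 104, 117 and 134 CPM (-0.43 ± 0.11, adjusted p = 0.0216). The groups of these 3 genes did not overlap. Lrfn3 fell from 63.9, 69.7 and 74.0 CPM to 52.8, 57.3 and 62.5 CPM (-0.27 ± 0.09, adjusted p = 0.0458). Leaving out shControl replicate 2 or 3 or shOpa1 replicate 1 or 2 ended the call of Lrfn1 (adjusted p = 0.0698, 0.0561, 0.0688 and 0.0720) and of Lrfn3 (0.115, 0.114, 0.144 and 0.125). Lrfn5, a ligand of LAR-type phosphatases, pointed the other way with 84.6, 82.5 and 114.5 CPM against 107, 111 and 119 CPM (0.26 ± 0.13, adjusted p = 0.157). Lrfn5 was called higher in the paired fit (adjusted p = 0.00661), and also when shControl replicate 3 was left out (adjusted p = 0.00541).

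The IL1RAPL proteins, further ligands of LAR-type phosphatases, had the lowest mean levels of the 40 genes in shControl and were not called. Il1rapl1 held 13.1, 12.0 and 11.8 CPM against 10.9, 11.2 and 11.2 CPM, which did not overlap but differed little (log2 fold change -0.15 ± 0.09, adjusted p = 0.246). Il1rapl2 ranged from 3.77 to 5.79 CPM in shControl and from 3.94 to 5.58 CPM in shOpa1 (-0.05 ± 0.21, adjusted p = 0.866).

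Cerebellins are secreted proteins that bridge neurexins to postsynaptic GluD receptors. In shControl their transcripts varied more between libraries, relative to their mean, than those of any other of the 40 genes. Cbln1 fell from 37.7, 47.5 and 70.8 CPM to 21.4, 29.0 and 35.2 CPM, with the highest library of each group numbered 3 (log2 fold change -0.87 ± 0.27, adjusted p = 0.0462). Without shControl replicate 2 or 3 or shOpa1 replicate 1 or 2 the adjusted p of Cbln1 was 0.0800, 0.0863, 0.121 and 0.117, and the call was lost. Cbln2 held 32.2, 41.9 and 64.6 CPM against 45.6, 48.2 and 54.3 CPM (0.09 ± 0.24, adjusted p = 0.794). Without both libraries numbered 3 it was called higher (0.34, adjusted p = 0.0420). Cbln4 held 13.5, 15.4 and 34.7 CPM against 15.1, 16.3 and 28.3 CPM (-0.09 ± 0.42, adjusted p = 0.883). In Cbln4 the libraries numbered 3 stood above the others of both groups by more than the groups differed.

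Among latrophilins, Adgrl3 fell from 103, 109 and 124 CPM to 81.0, 83.8 and 86.5 CPM (log2 fold change -0.42 ± 0.08, adjusted p = 0.00589). Adgrl3 encodes a postsynaptic latrophilin that binds FLRT3 and teneurins. Adgrl1, whose product binds the spider toxin latrotoxin, held 799.8, 911 and 911 CPM against 690.4, 713 and 851 CPM. Only the shOpa1 library numbered 3 reached the range of shControl, and the gene was not called (-0.22 ± 0.10, adjusted p = 0.116). It was called without that library (-0.32, adjusted p = 0.0197) and with the replicate block (adjusted p = 0.00295). Other gene models overlap 15.6% of the exon bases of Adgrl1, so the assignment of reads from the shared bases is uncertain. Adgrl2 ranged from 121 to 158 CPM in shControl and from 119 to 160.1 CPM in shOpa1 (-0.01 ± 0.15, adjusted p = 0.951).

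The 3 FLRT genes, whose products bind latrophilins, were not called and differed in direction. Flrt3 held 45.8, 55.0 and 41.5 CPM against 67.5, 79.4 and 52.3 CPM (log2 fold change 0.49 ± 0.17, adjusted p = 0.0583). Flrt1 held 26.2, 30.2 and 33.3 CPM against 17.3, 17.6 and 27.7 CPM (-0.52 ± 0.20, adjusted p = 0.0777). Each of these differed in the same direction in all 3 pairs, though the groups overlapped. Without shOpa1 replicate 3 Flrt3 was called higher (0.63, adjusted p = 0.00984) and Flrt1 lower (-0.78, adjusted p = 0.00279). The fit with the replicate block also called Flrt3 (adjusted p = 3.62e-05) and Flrt1 (adjusted p = 0.000659). Flrt2 held 92.0, 91.2 and 53.3 CPM against 92.2, 95.0 and 54.0 CPM, and so differed between libraries numbered 3 and the rest and hardly between groups (0.03 ± 0.29, adjusted p = 0.947).

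The 3 SynCAMs listed here, Cadm1, Cadm2 and Cadm3, had the lowest median fold change of the 12 families (-1.16). They are immunoglobulin proteins present on both sides of the synapse, where they bind one another. Cadm3 (ENSMUSG00000005338, chr1:173333258-173367695, minus strand) held 664, 694 and 789 CPM in shControl and 248, 252 and 292 CPM in shOpa1. The highest shOpa1 library was below the lowest shControl library by more than the whole range of either group. Cadm3 was 2.71-fold lower, a log2 fold change of -1.44 ± 0.09 (adjusted p = 7.73e-05), with pair differences of -1.42, -1.46 and -1.43. The erythroid receptor gene Ackr1 overlaps 4.98% of its exon bases.

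Cadm2 (ENSMUSG00000064115, chr16:66655421-67620908, minus strand) held 161, 170.0 and 145 CPM against 73.2, 73.1 and 66.5 CPM. It was 2.24-fold lower (log2 fold change -1.16 ± 0.08, adjusted p = 8.82e-05). Cadm3, Cadm2 and Slitrk5 were the 3 adhesion genes called at least 2-fold lower, as were 5.65% of all tested genes. Cadm1 held 268, 277 and 379 CPM against 179, 183 and 272 CPM. Its shOpa1 library numbered 3 lay within the shControl range, and it was not called (-0.54 ± 0.21, adjusted p = 0.0828). Without that library Cadm1 was called (-0.77, adjusted p = 0.0137), as it was with the replicate block (adjusted p = 1.33e-06).

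The fourth SynCAM gene, Cadm4, is outside the 40 genes and was chosen for mention after its values were seen. Cadm4 held 358, 397 and 392 CPM in shControl and 327, 362 and 376 CPM in shOpa1, and the groups overlapped. It was not called (log2 fold change -0.11 ± 0.07, adjusted p = 0.292). With Cadm4 included the median of the SynCAMs was -0.85.

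Called genes were counted by role, where 20.0% of all tested genes fell and 18.9% rose. Of the 9 genes grouped as presynaptic receptors, 6 fell and 1 rose, and their median log2 fold change was -0.52. The gene of this group that rose was Cntnap1, described above as a gene of the paranodal junction. Of the 19 postsynaptic ligands 10 fell, with a median of -0.28. Of the 6 latrophilins and FLRT proteins 1 fell, a share near that of all genes, with a median of -0.12. Of the 3 cerebellins 1 fell, with a median of -0.09. Of the 3 SynCAMs 2 fell, with a median of -1.16. No test of the difference between roles was made.

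Levels of different genes were compared as CPM per kilobase of annotated exon. In shControl the order was led by Nlgn2 (107 ± 8.48), Adgrl1 (102 ± 7.46) and Cadm3 (98.7 ± 8.97; SD, n = 3), which differed by less than their spread. Nrxn2 (82.8 ± 10.5) and Ptprs (66.3 ± 5.95) followed, each apart from its neighbours by more than 1 SD. The lowest were Lrrtm4 (2.71 ± 0.13), Slitrk2 (2.04 ± 0.59), Il1rapl1 (1.32 ± 0.08) and Il1rapl2 (1.02 ± 0.22). Nlgn1, the excitatory neuroligin, was far below Nlgn2 at 3.53 ± 0.49. In shOpa1 Nlgn2 (97.8 ± 9.31) and Adgrl1 (87.5 ± 10.1) still led, and Cadm3 came sixth at 36.4 ± 3.38, behind Nrxn2 (57.5 ± 9.61), Ptprs (48.6 ± 6.09) and Lrfn4 (38.5 ± 1.67).

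Summed over the listed genes of each family on the same scale, SynCAM transcripts went from 131, 137 and 156 in shControl to 56.8, 57.7 and 70.1 in shOpa1, 56.4% lower. Cadm4, outside the 40 genes, had a higher level than these 3 together (177 ± 9.68 in shControl and 164 ± 11.8 in shOpa1; SD, n = 3). With Cadm4 the SynCAM sum was 318 ± 20.3 and 226 ± 18.1, 29.0% lower. Neurexins went from 96.7, 106 and 118 to 66.9, 69.8 and 84.3, 31.2% lower, and SLITRKs from 53.6, 55.4 and 47.4 to 38.9, 38.7 and 32.9, 29.3% lower. LAR-type phosphatases went from 100.1, 109 and 121 to 73.0, 73.9 and 91.6, 27.9% lower. SALMs went from 124, 135 and 145 to 101, 109.5 and 118, 18.9% lower. In these 5 families no shOpa1 sum reached the lowest shControl sum. LRRTM sums were 12.4% lower, neuroligin sums 12.2% lower and latrophilin sums 13.6% lower, and all of these overlapped between groups. Cerebellin and IL1RAPL sums overlapped as well. The Caspr sum was 58.9 ± 2.27 in shControl and 60.5 ± 3.00 in shOpa1, and the FLRT sum 25.1 ± 3.65 and 27.6 ± 4.69. With Cntnap5b, outside the 40 genes, the Caspr sum was 62.5 ± 2.33 and 62.2 ± 2.71. Most of the neuroligin sum came from Nlgn2, which was not called.

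**Figure D4:**
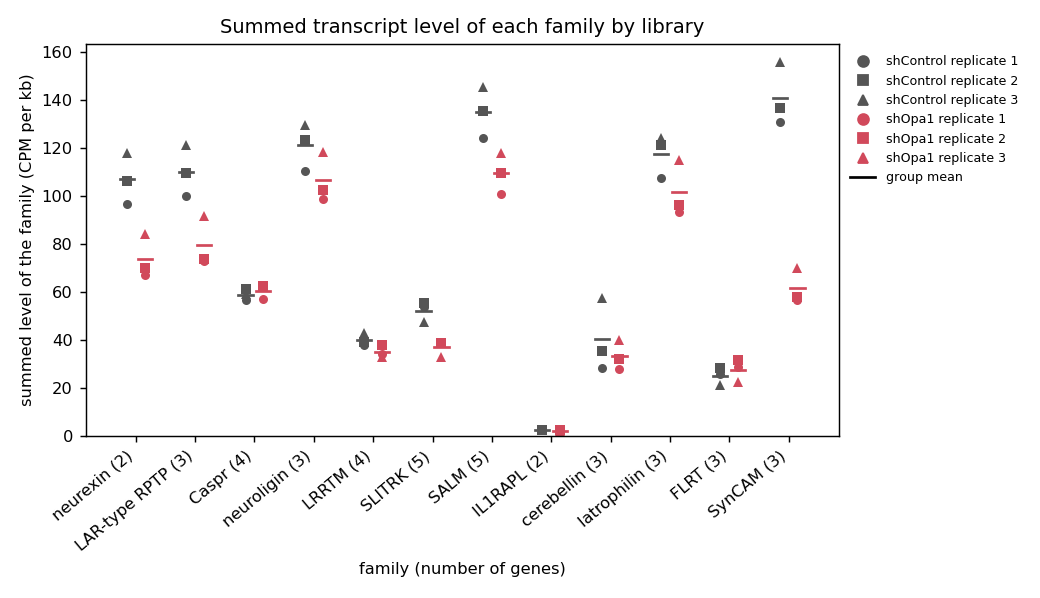
Summed level of each family in each library, in CPM per kilobase of exon, with shControl in grey, shOpa1 in red, marks shaped by replicate number and bars at the group means (n = 3). The sum of Cadm1, Cadm2 and Cadm3 goes from a mean of 141 to one of 61.5, and the Caspr sum stays near 60.

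Other adhesion and bridging partners outside the 40 genes were read from a second list of 40, such as calsyntenins, teneurins, MDGAs and netrin-G ligands. Of these 13 (32.5%) fell, against 20.0% of all tested genes, and none rose, against 18.9%, with a median log2 fold change of -0.35. No partner with a positive log2 fold change had an unadjusted p under 0.05 in edgeR (0 of 40), and DESeq2 called 0 higher. With the replicate block 26 of the 40 partners (65.0%) fell, against 30.7% of all genes, and 4 rose, against 28.8%. Elfn1, a postsynaptic protein that binds metabotropic glutamate receptors across the cleft, went from 121, 139 and 141 CPM to 39.6, 40.5 and 45.3 CPM (-1.68 ± 0.09, adjusted p = 3.8e-05). Igsf9b, an adhesion protein of inhibitory synapses, fell by 0.97 ± 0.10 (adjusted p = 0.000507). The axonal adhesion genes L1cam and Ncam1 fell by 0.63 ± 0.07 (adjusted p = 0.000510) and 0.87 ± 0.12 (adjusted p = 0.00172).

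Scaffold proteins hold these adhesion molecules inside the cell. Of 34 scaffold genes 14 (41.2%) fell, against 20.0% of all tested genes, and 5 (14.7%) rose, a share near the 18.9% of all genes, with a median log2 fold change of -0.26. With the replicate block 20 (58.8%) fell, against 30.7% of all genes, and 9 (26.5%) rose, near the 28.8% of all genes, and without shOpa1 replicate 2 the counts were 8 and 3. Apba1, the neuronal adaptor Mint, fell from 431, 420.3 and 461 CPM to 264, 255 and 265 CPM (-0.74 ± 0.06, adjusted p = 0.000153). Epb41l1, a membrane skeleton protein, fell by 1.10 ± 0.10 (adjusted p = 0.000251), and Erc2, an active zone protein, by 1.04 ± 0.10 (adjusted p = 0.000414). Ppfia1, a liprin that binds LAR-type phosphatases, rose from 41.6, 41.8 and 37.8 CPM to 55.4, 60.2 and 59.5 CPM (0.53 ± 0.07, adjusted p = 0.00130). Of the other liprin genes on this list, Ppfia4 (-0.79 ± 0.11, adjusted p = 0.00130) and Ppfia3 (-0.31 ± 0.07, adjusted p = 0.0112) fell. Ppfia2 was not called (0.18 ± 0.09, adjusted p = 0.153). Other scaffold genes that rose included Lin7c, Dlg2 and Gphn, of which Gphn acts at inhibitory synapses. Lin7c, Dlg2, Gphn and the liprin genes other than Ppfia1 were chosen after their values were seen.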

How the data were processed

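Expression was measured by RNA sequencing of a stranded mRNA kit's libraries, per the labels' protocols. The deposited table holds raw counts per gene. Per the file headers, read pairs were counted by featureCounts (version 1.6.0) against the Ensembl 99 annotation of GRCm38. No strand or multi-overlap option is given there, so reads shared with an overlapping gene are uncertain. HISAT2, DESeq2 and mm10 are named, with no version, in the submitters' processing notes. A second deposited table gives the authors' log2 fold changes and adjusted p-values. The other columns of that table were not used here.

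Counts were tested with edgeR 4.0.16 (R 4.3.3): TMM scaling, filterByExpr, a robust quasi-likelihood test, group as the only term, Benjamini-Hochberg adjustment over 16562 genes at 0.05. Standard errors are |log2 fold change| / √F. CPM values use TMM-scaled library sizes. All 40 genes are named. Of each list of partners and scaffolds, the 4 called genes with the smallest p are named. The genes, lists and tests were chosen with earlier results of these data known. Deviations of same-numbered libraries correlated at 0.595, 0.608 and 0.714, so the numbers were taken as pairs in the replicate block and the pair differences. The main test did not use these pairs. Libraries of 1 group differed by 6.70 to 34.1 in chi-square per degree of freedom, more than repeat sequencing of 1 library would give. These values cannot tell whether the libraries came from separate cultures or dissections. Gene names were found for 55144 of 55471 identifiers. For each gene the longest 3′ UTR of its coding transcripts was read from GENCODE M21 (Ensembl 96, GRCm38), where it had at least 50 bases. The fits were tested on simulated counts, and the sequence search on shuffled fold changes in which carriers of a drawn sequence were lowered. Of 200 genes changed 1.5-fold, edgeR called 25.5%, edgeR with the replicate block 14.5% and DESeq2 45.5%, with 4, 11 and 30 false calls. Of 200 genes changed 2-fold they called 66.5%, 63.5% and 75.0%, with 16, 21 and 66 false calls. The simulated libraries held no difference between replicate numbers. A gene that was not called can thus still have changed. The 13 alternatives were DESeq2 1.42.0, other scalings, no filter, the replicate block, replicate 3 as a second batch, replicates 1 and 2 only, and each library left out. One scaffold gene is counted but not reported by name here.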

Additional observations from a re-analysis of the deposited data

How the results depend on the processing

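Of the 21 adhesion genes called, 16 were called in all 13 alternatives, and the exceptions were Nrxn2, Ptprs, Lrfn1, Lrfn3 and Cbln1. No called gene changed sign. The number of adhesion genes called lower was 20, ran from 18 to 27 over the 7 alternatives that leave out no single library, and from 15 to 24 when 1 library was left out. The number called higher was 1, and it was 2 with DESeq2, 2 with upper-quartile scaling, 4 with the replicate block, 4 with replicate 3 as a second batch and 4 with replicates 1 and 2 only. Leaving out 1 library gave 1 to 2. The median log2 fold change of -0.36 became -0.32 with replicates 1 and 2 only and -0.32 with upper-quartile scaling, and ran from -0.44 to -0.35 when 1 library was left out. Upper-quartile scaling moved the median of all genes by 0.05.

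Partners called lower, 13 of 40, became 24 with replicate 3 as a second batch, 26 with the replicate block and 24 with replicates 1 and 2 only. Partners called higher, 0 of 40, became 4, 4 and 5 in the same order, and 0 to 2 when 1 library was left out. Scaffolds called lower, 14 of 34, ran from 8 to 18 when 1 library was left out, with 8 without shOpa1 replicate 2. Scaffolds called higher, 5 of 34, became 8 with replicate 3 as a second batch, 9 with the replicate block and 9 with replicates 1 and 2 only, and ran from 3 to 5 when 1 library was left out. The cause of these shifts was not tested. Over 48 named genes and 13 alternatives, 23 results lost a call, 36 gained one and 565 kept theirs. With 3 libraries a group, an exact permutation test of a single gene could not go below p = 0.1.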
